A study of Mus musculus with 15 samples.

Results

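The 6 libraries of MH-S cells exposed to rod-shaped microparticles were treated as a single group and compared with the 3 libraries of cells given LPS and IFN-γ (M1), so that 9 of the 15 libraries of the series enter the comparison. Untreated cells (M0, 3 libraries) served as the base level. MH-S is a mouse alveolar macrophage line transformed with SV40. All cells were cultured for 24 h in RPMI with serum, M0 with nothing added. The M1 stimulus was LPS at 1 µg/mL with IFN-γ at 20 ng/mL, and the rods were given at 0.1 mg/mL. The rods had a core of nanoparticles of calcium phosphate (CaP, 3 libraries) or silica (SiO2, 3 libraries), and both kinds carried the same alginate, protamine and carboxymethyl chitosan polymers. The study states that equal mass held different numbers of CaP and SiO2 rods, since their densities differ. It also reports that SiO2 rods were more cytotoxic to these cells. Differences between rod types are thus not differences of core material alone. Each rod library came from its own particle batch. All wells shared a cell passage, so p-values measure the spread between wells and batches and not between passages. With the rod libraries pooled as a single group, the difference between CaP and SiO2 rods is also part of that spread. A further 3 libraries of cells given IL-4 at 20 ng/mL (M2) entered the model to estimate the spread.

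LPS is a component of the outer membrane of Gram-negative bacteria sensed by Toll-like receptor 4, and IFN-γ is a cytokine released by T cells and natural killer cells. Together they switch macrophages to the classical, pro-inflammatory state, in which many resting-state genes are shut down while cytokines and interferon targets rise. A macrophage that takes up a particle encloses it in a phagosome, which fuses with lysosomes and is acidified by the V-ATPase proton pump. The comparison asks which transcripts are more abundant after rod uptake than after classical activation, and whether they lie above the level of untreated cells or were held at it.

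Rod libraries held between 12646926 and 50729211 counts and M1 libraries between 10117846 and 14879931, so low genes were measured more precisely with rods than in M1. Mitochondrial transcripts took 1.13 to 1.51% of counts with rods, 0.888 to 1.04% in M1 and 1.48 to 2.18% in M0. Of 10 macrophage defining markers 9 passed the filter on low counts, with a summed level of 2791 to 3349.9 CPM with rods and 3375 to 3540.4 CPM in M1, where CPM are counts per 1000000 of the scaled library size. Of 21 genes that mark alveolar macrophages 10 passed. The defining *Siglecf*, *Pparg*, *Car4* and *Chil3* did not pass, with no library over 32 counts, and *Ear1* and *Ear2* had 0 counts throughout. The 21 markers of epithelium, fibroblasts and lymphocytes stayed at or under 8 counts in every library. In bulk RNA, fewer cells that express a gene and less RNA per cell cannot be told apart.

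Rods exceeded M1 at 742 of 16654 genes tested, 4.46% of them, and lay below M1 at 1917 genes, 11.5%. A gene counted as differentially expressed (DEG) at a Benjamini-Hochberg adjusted p below 0.05 in edgeR's quasi-likelihood test and an absolute log2 fold change above 0.5. Of the 742 genes, 411 were lower in M1 than in M0 with no call between rods and M0. Another 36 were raised by rods over M0. For 293 neither M1 nor rods were called against M0, and the remaining 2, *Klf4* and *C5ar2*, were lower than M0 under both treatments but less so with rods. Over the 742 genes the median log2 fold change was 1.07 for rods over M1 and 0.14 for rods over M0, and that of M1 over M0 was −0.92. Over all genes tested these medians were 0.01, 0.03 and −0.01. M1 was at or under 3 counts in every library for 44 of the 742 genes, and with these set at their bound the median for rods over M1 was 1.06.

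Every rod library lay above every M1 library for 700 of the 742 genes, against 8.24% of all genes tested. The count fell to 466, 445 and 471 when M1 replicate 1, 2 and 3 were left out in turn, of which 438, 421 and 443 belonged to the 742. It rose to 1215 without M2 replicate 2, the library farthest from its group, and all 742 were then called. With counts thinned to the smallest library, 607 genes were called, 579 of them among the 742. Comparisons with M0 and with M1 share libraries, so the class sizes describe these libraries and are not independent counts.

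**Figure D1:**
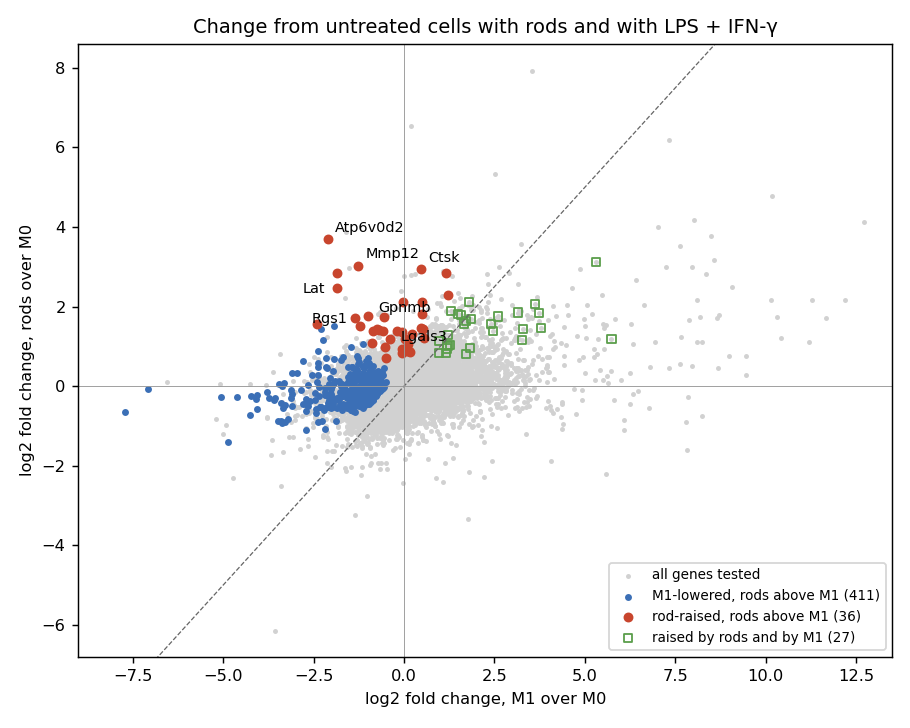
Log2 fold change of M1 over M0 (x axis) and of rods over M0 (y axis) for each of the 16654 genes tested. The dashed line marks equal change. Blue points are the 411 genes lower in M1, with rods above M1 and no call between rods and M0. Red points are the 36 genes raised by rods and above M1, and green squares the 27 genes raised by both. The blue points spread along the x axis at rod values from −1.41 to 1.52, with a median of −0.07, while the red points lie above 0.

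Rods raised 73 genes over M0, 0.438% of those tested, and 36 of these also exceeded M1. M1 was not called against M0 for 31 of them and was lower than M0 for 5, namely *4930447F24Rik*, *Rgs1*, *Gpnmb*, *Yipf7* and *Pcp4l1*. The median log2 fold change of the 36 was 1.61 over M1 and 1.42 over M0, and that of M1 over M0 was −0.13. Every rod library lay above every M1 library for 34 of the 36 and above every M0 library for 35, against 3.95% of all genes for the latter. The exception to both was *F3*, and *C430002N11Rik* overlapped with M1 alone. These counts depend on single control libraries, most of all on M0 replicate 1. Without M0 replicate 1, the deepest of its group, 8 genes were called above M0, and 4 of the 36 kept both calls (*Rgs1*, *Tsc22d1*, *4930447F24Rik* and *4833415N18Rik*). All 36 then kept a positive log2 fold change over M0 at an unadjusted p below 0.05 in edgeR's test. They had, however, been chosen with that library included. Without M0 replicate 3, 17 of the 36 kept both calls, and after thinning to the smallest library 18 did.

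Of the 36, *Atp6v0d2*, *Gpnmb* and *Ctsk* belong to the list of osteoclast-type genes, known from the cells that resorb bone, and *Lgals3* and *Mmp12* likewise encode products of macrophages that handle or degrade engulfed or extracellular material. *Atp6v0d2*, a subunit of the membrane part of the V-ATPase that is abundant in osteoclasts, had the largest fold change over M1. With CaP rods it stood at 12.1, 14.9 and 15.8 CPM and with SiO2 rods at 4.98, 4.30 and 4.11 CPM. M0 libraries held 0.526, 1.10 and 0.694 CPM and M1 libraries 0.172, 0 and 0.388 CPM. All 6 rod libraries thus lay above all 6 others, and the CaP and SiO2 libraries did not overlap. The log2 fold change was 5.80 ± 0.82 (SE) over M1 (adjusted p = 9.98e-05) and 3.70 ± 0.59 over M0 (adjusted p = 0.00699). The difference between rod types, 1.67 on the log2 scale (95% interval 1.14 to 2.20), missed the threshold across all genes at an adjusted p of 0.0562.

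*Gpnmb*, a transmembrane glycoprotein of lysosomes and melanosomes, moved in opposite directions under the treatments. Its rod libraries ranged from 173 to 365 CPM with a median of 320.2. M0 libraries held 64.5, 99.5 and 102 CPM, and M1 libraries 32.7, 46.7 and 53.0 CPM. The ranges of the 3 conditions were separate, with a log2 fold change of 2.77 ± 0.28 over M1 (adjusted p = 5.04e-06) and 1.76 ± 0.26 over M0 (adjusted p = 0.00586). The log2 fold change of M1 over M0 was −1.01 ± 0.28 (adjusted p = 0.0254). The lowest rod value came from CaP replicate 1, and CaP and SiO2 did not differ by the test (log2 difference −0.11, 95% interval −0.67 to 0.44). *Lgals3*, galectin-3, a sugar-binding protein that gathers on damaged endolysosomes, stood at 1685 to 2182 CPM with rods (median 1770.1). M0 held 563, 1035 and 818 CPM and M1 423, 676 and 736 CPM, again below every rod library, and the log2 fold change over M1 was 1.57 ± 0.23 (adjusted p = 1.88e-04).

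*Mmp12*, macrophage elastase, showed the reverse order of the rod types. It stood at 5.14, 4.07 and 4.75 CPM with CaP and at 20.9, 13.7 and 16.9 CPM with SiO2. M0 libraries held 1.05, 1.69 and 1.39 CPM and M1 libraries 0.944, 0.546 and 0.0970 CPM. Both rod types exceeded M1, with log2 fold changes of 3.10 for CaP (adjusted p = 2.62e-04) and 4.97 for SiO2 (adjusted p = 2.03e-06), while the difference between them, −1.87 (95% interval −2.43 to −1.32), had an adjusted p of 0.0562. *Ctsk*, cathepsin K, a collagen-cleaving protease, was low throughout, at 0.593 to 1.04 CPM with rods, and M0 and M1 were at or under 3 counts in every library. Its level with rods was at least 3.70-fold higher than M0 and at least 3.05-fold higher than M1 when the floor of 3 counts per library was taken for both.

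*F3*, tissue factor, which starts blood coagulation, was also low, with 0.921, 1.25 and 1.47 CPM in CaP and 0.977, 0.227 and 0.752 CPM in SiO2. M1 libraries held 0.258, 0.273 and 0.388 CPM, so that SiO2 replicate 2 lay below every M1 library. The log2 fold change over M1 was 1.69 ± 0.54 (adjusted p = 0.039).

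The promoters of 3 of these genes are shown because they hold the heptamer counted over the class. The sequences are those of RefSeq on GRCm38.p6, from 250 bases before to 50 bases after a transcript start, written 5′ to 3′ on the gene's strand, and capitals mark matches to TGANTCA, the letters recognised by AP-1 factors. *Gpnmb* lies on the plus strand at chr6:49036268-49036567 with a match starting at base 8 after the start, *Mmp12* on the plus strand at chr9:7347124-7347423 with a match at −44, and *F3* on the plus strand at chr3:121723287-121723586 with matches at −146 and −135.
Gpnmb: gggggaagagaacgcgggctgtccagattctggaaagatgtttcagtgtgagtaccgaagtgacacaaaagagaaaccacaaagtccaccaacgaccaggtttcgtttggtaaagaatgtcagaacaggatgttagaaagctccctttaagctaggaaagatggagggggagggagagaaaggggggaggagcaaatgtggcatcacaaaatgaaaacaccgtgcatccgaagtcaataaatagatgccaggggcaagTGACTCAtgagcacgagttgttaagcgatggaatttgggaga
Mmp12: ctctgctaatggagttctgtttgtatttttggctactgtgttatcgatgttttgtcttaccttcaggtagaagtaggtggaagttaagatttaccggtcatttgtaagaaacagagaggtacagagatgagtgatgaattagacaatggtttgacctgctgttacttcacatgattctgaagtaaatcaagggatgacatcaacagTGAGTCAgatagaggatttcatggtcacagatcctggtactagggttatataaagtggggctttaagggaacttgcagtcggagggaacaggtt
F3: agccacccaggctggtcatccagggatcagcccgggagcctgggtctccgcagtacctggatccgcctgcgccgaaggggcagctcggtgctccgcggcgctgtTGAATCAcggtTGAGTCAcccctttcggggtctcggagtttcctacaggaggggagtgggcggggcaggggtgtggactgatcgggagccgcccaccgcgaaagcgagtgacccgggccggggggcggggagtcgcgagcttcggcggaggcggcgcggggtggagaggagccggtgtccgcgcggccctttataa

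TGANTCA reads the same on both strands. It occurred in 8 of 38 promoters of the rod-raised genes (21.1%), belonging to 7 of the 27 genes with a promoter in the table, namely *C77080*, *F3*, *Gpnmb*, *Hilpda*, *Mmp12*, *Pla2g2e* and *Wdr54*. Of all 11677 promoters of tested genes 605 held it, 5.18%. Of the promoters of genes lower in M1, 25 of 369 did (6.78%), and of the genes raised by both rods and M1, 5 of 24 did (20.8%). The share was thus about as high among genes raised by both treatments. ACGTG, the core of the hypoxia response element, which every CACGTG also holds, occurred in 4 of 38 promoters of rod-raised genes (10.5%) against 25.9% of all promoters. CACGTG occurred in 2 of the 38 (5.26%) against 10.2%. The interferon response element, read as GAAA, any 2 bases and GAAA again, and searched on both strands like the others, occurred in none of the 38 promoters against 3.24% of all. Promoters of a gene with several starts can overlap, and a match is a match of letters, with no test attached.

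*Rgs1*, which shortens signalling by G-protein-coupled receptors, stood at 109.6, 97.8 and 91.0 CPM with CaP and at 63.5, 69.7 and 65.1 CPM with SiO2. The rod types did not overlap but were not called apart. M0 held 20.5, 30.0 and 25.2 CPM and M1 9.61, 9.97 and 10.1 CPM. Rods raised it and M1 lowered it with no overlap between the 3 conditions, at a log2 fold change over M1 of 3.07 ± 0.24 (adjusted p = 4.05e-07). *Lat*, an adaptor best known from T cell receptor signalling, stood at 3.36 to 7.56 CPM with rods (median 5.65), at 0.579, 1.62 and 1.16 CPM in M0 and at 0.172, 0.341 and 0.291 CPM in M1. Its log2 fold change over M1 was 4.33 ± 0.47 (adjusted p = 1.02e-05), and the markers of T, B and NK cells stayed at or under 8 counts. *Cd200r4*, a receptor of the CD200 receptor family, reached a mean of 11.3 ± 1.44 CPM (SD, n = 6) with rods against 3.72 ± 0.663 CPM in M1 (SD, n = 3). *Il7r*, the interleukin 7 receptor chain, was called above M1 for the pooled rods (log2 fold change 0.98, adjusted p = 0.0341) and for neither rod type alone. *Nodal*, a ligand of the TGF-β family, stood at 1.11 to 2.61 CPM with rods and at 0.343, 0.887 and 0.679 CPM in M1.

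*Tsc22d1*, a leucine zipper protein, and *Bhlhe40*, a transcriptional repressor expressed in alveolar macrophages, were the transcriptional regulators among the 36. *Tsc22d1* stood at 16.7 to 22.8 CPM with rods (median 20.7), at 7.28, 8.70 and 8.79 CPM in M0 and at 9.62 ± 1.69 CPM in M1 (SD, n = 3). M0 and M1 overlapped and the rods lay above both, with a log2 fold change over M1 of 1.09 ± 0.16 (adjusted p = 2.67e-04). *Bhlhe40* ranged from 29.4 CPM in CaP replicate 1 to 78.3 CPM in CaP replicate 3, against 17.8, 23.3 and 23.0 CPM in M1. Its call over M0 was close to the threshold (adjusted p = 0.049).

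Known targets of hypoxia-inducible factor were also among the 36. *Adm*, which encodes the vasodilator peptide adrenomedullin, stood at 29.9 to 57.0 CPM with rods (median 43.4), at 10.2, 18.6 and 9.60 CPM in M0 and at 7.38, 8.46 and 10.3 CPM in M1. Its log2 fold change was 2.31 ± 0.28 over M1 (adjusted p = 3.85e-05) and 1.75 ± 0.27 over M0. *Hilpda*, a lipid droplet protein that inhibits triglyceride breakdown, reached 69.6 to 99.8 CPM with rods against 39.7, 59.8 and 60.4 CPM in M1, and was called above M1 for the pooled rods (log2 fold change 0.65, adjusted p = 0.039) but for neither type alone. *Mgarp*, a mitochondrial protein, reached 16.3 to 21.7 CPM with rods against 6.95, 9.15 and 11.9 CPM in M1.

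Enzymes made up a further part. *Pla2g2e*, a secreted phospholipase A2, stood at 7.06 ± 0.637 CPM with rods (SD, n = 6) and 3.07 ± 0.991 CPM in M1 (SD, n = 3). *Pgp*, phosphoglycolate phosphatase, stood at 95.5 to 115 CPM with rods and at 47.6, 66.8 and 58.9 CPM in M1. *Padi2*, a peptidylarginine deiminase, stood at 5.08 to 9.98 CPM with rods and at 1.55, 1.37 and 1.55 CPM in M1. *Echdc3*, a mitochondrial protein related to enoyl-CoA hydratases, had a log2 fold change over M1 of 1.51 (adjusted p = 1.36e-04). All 4 enzymes had M1 and rod ranges that did not overlap.

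The gene with the smallest p over M1 in this class was a predicted one. *4930447F24Rik* stood at 25.5 to 33.6 CPM with rods (median 27.3), at 8.65, 9.35 and 11.4 CPM in M0 and at 1.55, 1.98 and 1.94 CPM in M1, a log2 fold change of 3.96 ± 0.20 over M1 (adjusted p = 2.50e-09). *4833415N18Rik* reached 3.25 to 4.42 CPM with rods against 0.0858, 0.273 and 0 CPM in M1. *Yipf7*, a membrane protein of the Yip family, reached 8.21 to 10.3 CPM with rods against 1.37, 1.37 and 1.46 CPM in M1. *Gm17749*, *Gm43351*, *Oit3* and *ENSMUSG00000137263* had log2 fold changes over M1 of 2.17, 0.98, 0.90 and 2.17. For *C430002N11Rik* the value was 1.07, and its call was lost when any of M1 replicates 1 and 2, CaP replicates 1, 2 and 3 and SiO2 replicate 1 was left out (highest adjusted p 0.219). The remaining members, named here so that the class is complete and not by a rule set beforehand, were *Pcp4l1*, *Syngr1*, *Plekho1*, *Wdr54*, *Naa80*, *C77080*, *Gm13391* and *ENSMUSG00000139742*. Their log2 fold changes over M1 lay between 0.68 and 2.10.

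**Figure D2:**
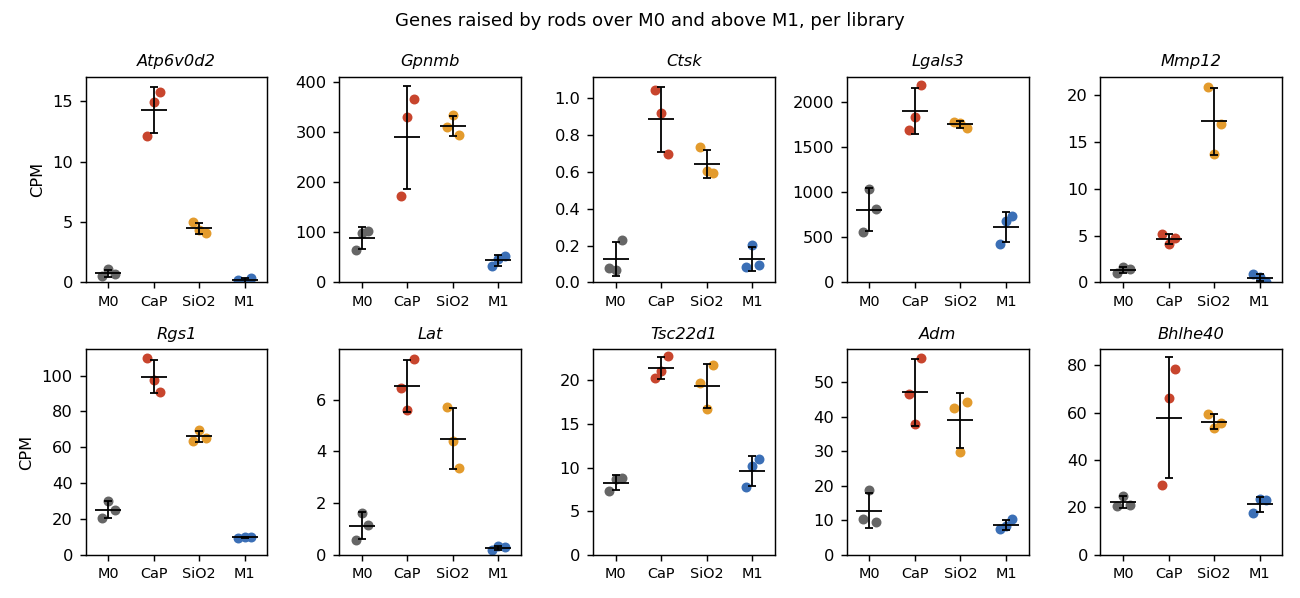
Level in CPM (y axis, linear from 0) of 10 genes raised by rods over M0 and above M1, in each library of M0, CaP rods, SiO2 rods and M1. Points are single libraries, horizontal lines the mean and bars the SD of 3 libraries. In each panel the CaP and SiO2 points lie above all M1 points, and *Atp6v0d2* (4.11 to 15.8 CPM with rods) and *Mmp12* (4.07 to 20.9 CPM) show opposite orders of the rod types.

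Of the 36 genes, 33 were called above M1 with CaP rods and 29 with SiO2 rods, of which 28 with both. CaP rods exceeded M1 at 590 genes in all (3.54%) and SiO2 rods at 464 (2.79%). *Oit3*, *C430002N11Rik*, *F3*, *Wdr54* and *Naa80* were called with CaP alone and *C77080* with SiO2 alone, which is not a test of a difference. None of the 36 was a DEG between the rod types, where 3 genes were called in all (0.018%). Among the 742, 387 were called with both types, 160 with CaP alone, 63 with SiO2 alone and 132 with neither.

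For the 2 of the 742 genes that were DEGs between the rod types, the pooled value hides that difference. Other genes, such as *Rgs1* and *Atp6v0d2*, had separate CaP and SiO2 ranges without a call. *Rcan1*, an inhibitor of calcineurin that is itself induced by calcineurin and NFAT, stood at 33.7, 72.7 and 79.8 CPM with CaP and at 7.96, 10.2 and 7.44 CPM with SiO2. M0 held 4.60, 6.23 and 4.39 CPM and M1 4.46, 7.03 and 5.72 CPM. The CaP libraries lay far above the rest and the SiO2 libraries slightly above, with a log2 difference between the types of 2.87 ± 0.30 (95% interval 2.28 to 3.46, adjusted p = 0.00147). CaP over M1 was 3.42 (adjusted p = 5.42e-06) and SiO2 over M1 0.55 (adjusted p = 0.345). Over M0, CaP was called (3.61, adjusted p = 7.30e-05). SiO2 (0.74, adjusted p = 0.551) and the pooled rods (2.80, adjusted p = 0.0962) were not. The pooled call of *Rcan1* over M1 (log2 fold change 2.62 ± 0.77, adjusted p = 0.0304) was lost without any M1 library and without CaP replicate 2 or 3, at a log2 fold change of 2.19 or more and a highest adjusted p of 0.122. *Serpinb1a*, an inhibitor of neutrophil serine proteases named here after its values were seen, stood at 8.91, 8.86 and 9.43 CPM with CaP, at 0.831, 0.906 and 0.554 CPM with SiO2 and at 0.172, 0.0683 and 0.0970 CPM in M1. Its CaP over SiO2 difference was 3.61 ± 0.26 (adjusted p = 2.19e-06), and both types exceeded M1. M0 held 0.289, 0.390 and 0.463 CPM, and CaP over M0 was 4.70 (adjusted p = 3.26e-07). SiO2 (1.09, adjusted p = 0.415) and the pooled rods (3.87, adjusted p = 0.0697) were not called over M0. *Rcan1* and *Serpinb1a* are thus among the 293 genes with no call against M0 in the pooled fit. Close paralogues of this serpin exist in the mouse, so the assignment of its reads is uncertain.

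Most of the excess of rods over M1 lay in genes that LPS and IFN-γ lowered. M1 was lower than M0 at 812 genes (4.88%), and for 411 of these rods exceeded M1 without a call against M0. The median log2 fold change of the 411 was 1.10 for rods over M1 and −1.17 for M1 over M0, and −0.07 for rods over M0, with 163 of the 411 above 0. Every rod library lay above every M1 library for 393, and every M1 library below every M0 library for 408, against 12% of all genes for the latter. A gene whose M1 libraries are low enters both comparisons with the same libraries, and the count was 239 to 657 when single libraries were left out, lowest without M1 replicate 2, 260 without M1 replicate 3 and highest without M2 replicate 2.

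Among the genes with the largest fold changes of the 411 were a lectin, a G-protein regulator and a transcriptional inhibitor. *Cd209a*, a C-type lectin of the DC-SIGN family, stood at 13.6 to 19.6 CPM with rods (median 15.6), at 21.7, 16.3 and 20.1 CPM in M0 and at 1.03, 0.887 and 0.388 CPM in M1. Rods and M0 overlapped and M1 lay far below, with a log2 fold change of 4.34 ± 0.46 for rods over M1 (adjusted p = 9.63e-06) and −0.27 ± 0.29 for rods over M0 (adjusted p = 0.703). *Rgs2*, a relative of *Rgs1*, stood at 57.4 to 86.9 CPM with rods (median 71.3), at 121, 82.7 and 115 CPM in M0 and at 8.15, 5.46 and 5.63 CPM in M1. In contrast to *Rgs1*, its rod levels were not called against M0 (log2 fold change −0.58, adjusted p = 0.412). *ENSMUSG00000120319* had a log2 fold change over M1 of 3.84 ± 0.36 and *Id2*, an inhibitor of helix-loop-helix transcription factors, one of 3.23 ± 0.22 (adjusted p = 8.79e-08), with 20.7 to 29.4 CPM in rods, 23.6, 38.3 and 30.4 CPM in M0 and 2.66, 2.32 and 2.72 CPM in M1.

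*Plau*, the urokinase plasminogen activator, was the most variable of the leading genes. It stood at 46.2, 140.0 and 136 CPM with CaP, at 67.4, 45.7 and 48.2 CPM with SiO2, at 48.0, 26.8 and 13.1 CPM in M0 and at 4.64, 7.78 and 5.53 CPM in M1. M1 lay below every other library, while the rods overlapped with M0 (log2 fold change over M0 1.43 ± 0.60, adjusted p = 0.26). *Ephx1*, microsomal epoxide hydrolase, stood at 48.8, 55.1 and 61.1 CPM with CaP, at 27.2, 22.9 and 29.3 CPM with SiO2, at 16.8, 16.8 and 21.3 CPM in M0 and at 4.12, 3.82 and 3.49 CPM in M1. Its 4 conditions did not overlap, yet neither the rods over M0 (adjusted p = 0.0783) nor CaP over SiO2 (log2 difference 1.05, 95% interval 0.68 to 1.43, adjusted p = 0.123) passed the threshold. *Selenbp1*, a selenium-binding protein with methanethiol oxidase activity, had a log2 fold change over M1 of 3.46 ± 0.48 and one over M0 of 1.52 that missed the threshold (adjusted p = 0.0624).

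Enzymes of prostaglandin synthesis were among the 411. *Ptgs1*, cyclooxygenase 1, stood at 32.5 to 61.8 CPM with rods (median 50.4), at 35.6, 64.6 and 46.5 CPM in M0 and at 7.64, 14.6 and 14.8 CPM in M1. *Hpgds*, prostaglandin D synthase of blood cells, stood at 34.2 to 46.2 CPM with rods, at 24.1, 25.3 and 23.0 CPM in M0 and at 14.5, 11.9 and 9.70 CPM in M1. Rods over M1 was 1.98 ± 0.32 for *Ptgs1* (adjusted p = 5.10e-04) and 1.70 ± 0.22 for *Hpgds* (adjusted p = 6.63e-05). The inducible cyclooxygenase *Ptgs2* went the other way, with a log2 fold change of rods over M1 of −6.20 (adjusted p = 7.37e-13). *Usp2*, a deubiquitinase, and *Odf3l1* had log2 fold changes over M1 of 1.94 and 1.79 with rod levels close to M0 (log2 fold changes −0.08 and 0.05). *Gm16439*, at 1.73, is annotated as a processed pseudogene, and its reads could belong to the parent gene.

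**Figure D3:**
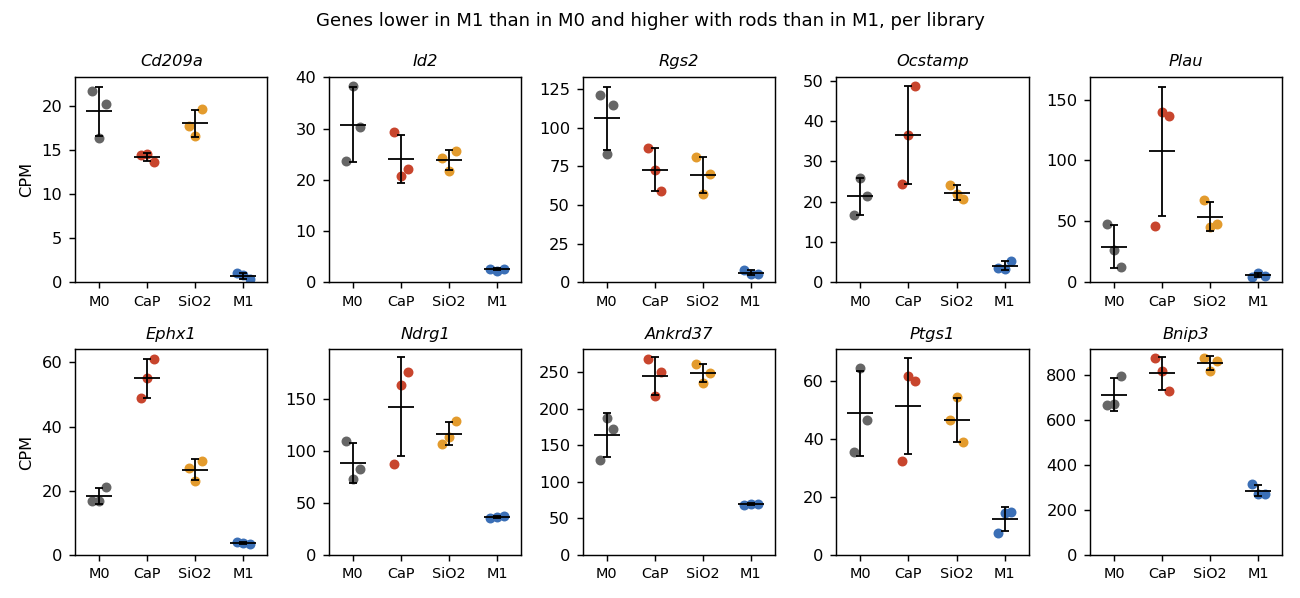
Level in CPM (y axis, linear from 0) of 10 genes that were lower in M1 than in M0 and higher with rods than in M1, in each library of M0, CaP rods, SiO2 rods and M1. Points are single libraries, horizontal lines the mean and bars the SD of 3 libraries. M1 points lie at the bottom of every panel, as for *Id2* at 2.32 to 2.72 CPM, and every rod point of *Ankrd37* and *Ephx1* lies above every M0 point.

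Genes of glycolysis and of the hypoxia-inducible factor HIF-1, which shifts cells to glycolysis when oxygen is short and is also stabilised by LPS in macrophages, had the largest median of the lists with more than 2 members tested. Of 24 members tested, 7 were higher with rods than in M1, 1 was lower and 16 were not called. Over all genes tested 4.46% were higher and 11.5% lower. The median log2 fold change of the list was 0.52, with 21 of 24 above 0, as were 8509 of all 16654 genes. *Adm* is described above. *Ndrg1*, a hypoxia-induced protein, stood at 88.0 to 176 CPM with rods (median 122), at 109.6, 72.9 and 83.1 CPM in M0 and at 36.0, 36.4 and 37.9 CPM in M1 (log2 fold change over M1 1.82 ± 0.22, adjusted p = 3.06e-05). *Bnip3*, a receptor for mitophagy, stood at 731 to 878 CPM with rods, at 670.1, 671 and 799 CPM in M0 and at 315, 272 and 271 CPM in M1 (1.54 ± 0.19, adjusted p = 4.29e-05). Both were lower in M1 than in M0 and not called between rods and M0.

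*Pdk1*, the kinase that holds back pyruvate dehydrogenase, was higher with rods than in M1 by 0.99 ± 0.21 on the log2 scale. The glycolytic enzymes *Pfkp*, *Gpi1* and *Tpi1* were higher by 0.79, 0.54 and 0.53 (adjusted p = 0.0238, 0.0273 and 0.0349), and none of the 3 was called for rods or for M1 against M0. The exception was *Pfkfb3*, which makes the activator of phosphofructokinase and stood at 0.831 to 1.94 CPM with rods and at 6.52, 6.28 and 6.21 CPM in M1 (log2 fold change −2.25 ± 0.27, adjusted p = 2.88e-05). The transporters *Slc2a1* for glucose and *Slc16a3* for lactate had positive log2 fold changes of 0.72 and 0.85 with wide errors (0.40 and 0.68) and were not called. Outside the list, *Ankrd37*, another hypoxia-induced gene, stood at 217 to 268 CPM with rods, at 129.6, 187 and 173 CPM in M0 and at 68.6, 70.0 and 70.1 CPM in M1 (1.83 ± 0.15, adjusted p = 7.22e-07). The number of members called higher was 4 without M1 replicate 2 or 3, 5 without M1 replicate 1, CaP replicate 2 or CaP replicate 3, and 9 without M2 replicate 2.

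**Figure D4:**
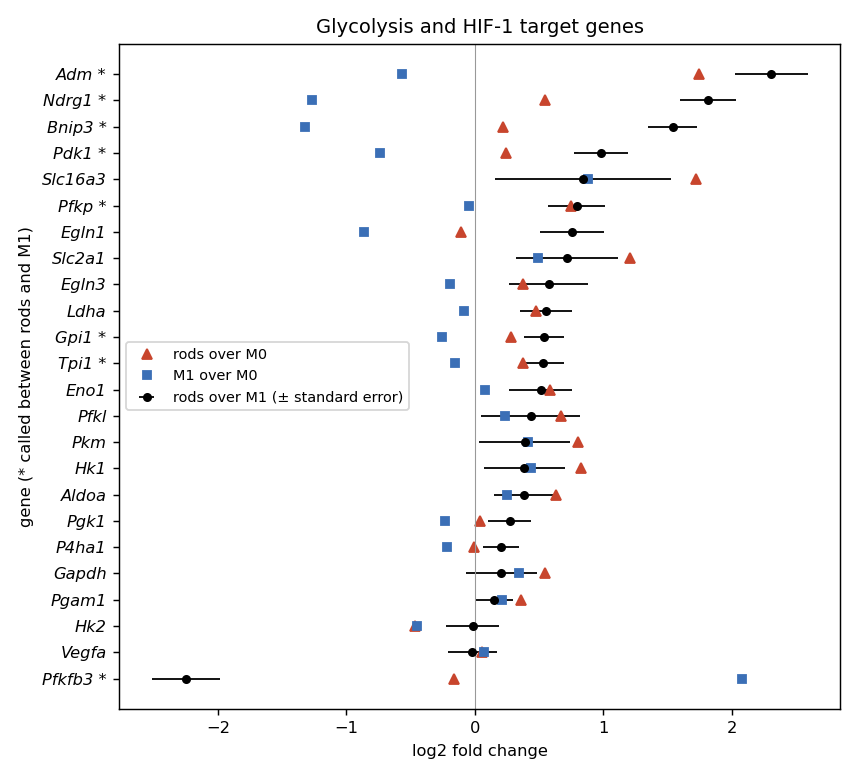
Log2 fold change (x axis) of the 24 glycolysis and HIF-1 target genes tested, one per row, for rods over M1 (black, with the standard error), rods over M0 (red triangles) and M1 over M0 (blue squares). An asterisk marks the 8 genes called between rods and M1. Black points lie right of 0 for 21 genes, and *Pfkfb3* lies at −2.25.

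Osteoclast-type genes split. Of 15 tested, 5 were higher with rods than in M1 (*Gpnmb*, *Atp6v0d2*, *Ocstamp*, *Dcstamp* and *Ctsk*), and 2 were lower (*Mmp9* and *Acp5*), with a median of 0.05. Over all genes tested 4.46% were higher and 11.5% lower. The number of osteoclast-type genes called higher was the same whichever library was left out. *Ocstamp* and *Dcstamp* encode membrane proteins needed for the fusion of macrophages into multinucleated cells. *Ocstamp* stood at 20.7 to 48.6 CPM with rods, at 16.7, 25.8 and 21.5 CPM in M0 and at 3.52, 3.41 and 5.43 CPM in M1 (log2 fold change over M1 2.85 ± 0.41, adjusted p = 1.65e-04). *Dcstamp* stood at 24.6 to 37.0 CPM with rods, at 15.7, 22.3 and 20.5 CPM in M0 and at 10.4, 14.1 and 14.8 CPM in M1 (1.31 ± 0.19, adjusted p = 2.43e-04). *Mmp9*, a gelatinase, and *Acp5*, tartrate-resistant acid phosphatase, were lower with rods by log2 fold changes of −2.57 and −3.29. Among 17 V-ATPase subunits *Atp6v0d2* was the 1 called higher, a share of 5.88% near the 4.46% of all genes. None was lower (median −0.02), and 3 were higher in M1 than in M0. Of 29 lysosomal hydrolases and membrane proteins 3 were higher (*Ctsk* and *Man2b1* among them) and none lower, with a median of 0.22.

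Of 16 lipid-associated macrophage genes 4 were higher with rods (*Gpnmb*, *Trem2*, *Lgals3* and *Cd9*) and 3 lower (*Fabp5*, *Fabp4* and *Cd36*), with a median of 0.29. Over all genes tested 4.46% were higher and 11.5% lower. *Trem2*, a lipid-sensing receptor, stood at 199 to 233 CPM with rods, at 136, 197 and 177 CPM in M0 and at 84.5, 110.0 and 103 CPM in M1 (log2 fold change over M1 1.12 ± 0.14, adjusted p = 3.87e-05). The 3 members that were lower carry fatty acids across membranes or through the cytosol. Of 10 alveolar macrophage identity genes tested 4 were higher (*Itgax*, *Bhlhe40*, *Cd9* and *Bhlhe41*) and 3 lower (*Marco*, *Mrc1* and *Fabp4*). *Itgax*, which encodes CD11c, stood at 2.44 to 4.92 CPM with rods, at 2.05, 2.47 and 3.01 CPM in M0 and at 1.63, 1.57 and 1.65 CPM in M1 (1.27 ± 0.26, adjusted p = 0.00321).

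Of 18 myeloid transcription factors 5 were higher with rods (*Id2*, *Mef2c*, *Klf4*, *Irf8* and *Mef2a*) and 2 lower (*Id1* and *Id3*). The shares over all genes tested were 4.46% higher and 11.5% lower. Of these factors, 3 were called higher without any given M1 library, without CaP replicate 2 or without SiO2 replicate 1. No member was called lower without M1 replicate 2 or 3, and 1 was without CaP replicate 3 or SiO2 replicate 1 or 3. *Klf4* was lowered by both treatments, with 8.90 to 11.9 CPM in M0, 5.20 to 7.56 CPM with rods and 2.43 to 3.61 CPM in M1. Of 9 macrophage defining markers tested 1 was higher with rods than in M1 (*Csf1r*) and 3 were lower (*Adgre1*, *Fcgr1* and *Itgam*). The median log2 fold change of these markers was 0.003. *Csf1r*, the receptor for macrophage colony-stimulating factor, stood at 108 to 203 CPM with rods, at 122, 194 and 177 CPM in M0 and at 60.9, 93.0 and 109 CPM in M1 (log2 fold change over M1 0.84 ± 0.24, adjusted p = 0.0271). Its call was lost without M1 replicate 1 or 2 or CaP replicate 2 or 3 (lowest log2 fold change 0.64, highest adjusted p 0.153). Of 13 Toll-like receptors and co-receptors 3 were higher and 4 lower. *Tlr5*, the flagellin receptor, stood at 1.15 to 2.53 CPM with rods and 2.16, 1.82 and 1.85 CPM in M0, and M1 was at or under 3 counts in every library, so rods were at least 6.48-fold higher than M1. *Ly86*, a partner of the Toll-like receptor relative RP105, stood at 2.24 to 3.78 CPM with rods and at 0.343, 0.478 and 0.679 CPM in M1. *Cd14*, the LPS co-receptor, was lower with rods, at a log2 fold change of −2.23.

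*Ank*, a membrane transporter that exports pyrophosphate and restrains mineral formation, was the 1 of 4 phosphate and mineralization genes tested that was higher, at 34.0 to 46.7 CPM with rods, 44.8, 34.2 and 44.2 CPM in M0 and 17.4, 12.3 and 11.2 CPM in M1 (log2 fold change over M1 1.50 ± 0.20, adjusted p = 6.97e-05). *Slc20a1*, a phosphate importer, was lower (−0.86). Of 15 calcineurin and NFAT genes *Rcan1* and *Egr3* were higher and *Nr4a2* and *Nfatc3* lower, against 4.46% and 11.5% of all genes tested. Between 1 and 4 were higher when single libraries were left out, 1 without any given M1 library or CaP replicate 2 or 3, 3 without CaP replicate 1 and 4 without M2 replicate 2. Of 11 scavenger and efferocytosis receptors 3 were higher (*Lrp1*, *Mfge8* and *Itgav*), none of which kept its call when M1 replicate 1 or 2 or CaP replicate 2 or 3 was left out, and 4 were lower. The number higher was 1 without M1 replicate 3 or any given SiO2 library. A single member was above M1 in each of 3 further lists, namely *Cx3cr1* of 11 chemoattractant receptors, with 8 lower, *Clec10a* of 14 alternative activation genes, with 7 lower, and *Mmp12* of 6 metalloproteinases and inhibitors, with 2 lower. Of the alternative activation genes DESeq2 called 3 higher, and 4 were higher without M2 replicate 2 and 2 without CaP replicate 1 or SiO2 replicate 2 or 3. The calls of *Cx3cr1* and of the lysosomal *Man2b1* were lost without M1 replicate 1 or 2, CaP replicate 2 or 3 or SiO2 replicate 2. *Tlr13* lost its call without M1 replicate 2 or 3 or replicate 2 or 3 of either rod type, and *Irf8* without any given M1 library, CaP replicate 2 or 3 or SiO2 replicate 1. The highest adjusted p of these 4 genes was 0.2. Of the 2 endothelial markers tested *Vwf* was higher, at 0.819 to 1.59 CPM with rods, and its call was lost without M1 replicate 2 (adjusted p = 0.0514), while *Pecam1* was lower.

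The lists of classical activation ran the other way. By edgeR no member was higher with rods among 19 genes that LPS raises through NF-κB, with 16 lower and a median of −3.31. None was higher among 18 interferon-stimulated genes, with 14 lower, or among 11 CC chemokines, with 8 lower. Over all genes tested 4.46% were higher and 11.5% lower. At an unadjusted p below 0.05, 0, 1 and 1 members of these lists were higher, and DESeq2 called none higher. *Il6* stood at 0 to 0.453 CPM with rods and at 53.6, 45.5 and 54.9 CPM in M1. *Il1b*, the precursor of interleukin 1β, stood at 0.435 to 2.79 CPM with rods, at 0.815, 1.10 and 1.27 CPM in M0 and at 358, 424 and 449 CPM in M1. Rods and M0 overlapped for both cytokines and M1 lay apart. *Nos2*, the inducible nitric oxide synthase, had 0 counts in M0, 0 to 0.302 CPM with rods and 4.12, 6.01 and 8.44 CPM in M1. *Csf3*, *Wfdc21*, *Urah* and *Gstt4* were the leading genes in favour of M1 by the rule for naming, with M1 means of 234 CPM for *Csf3*, 24.8 CPM for *Wfdc21* and 17.3 CPM for *Urah*, and no rod library above 0.684 CPM for any of the 4.

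Of 11 CC chemokines 8 were lower with rods than in M1, and *Ccl4* alone was called higher with rods than in M0. *Ccl4*, which attracts monocytes and lymphocytes, had mean levels of 154 CPM in M0, 417 CPM with rods and 1507 CPM in M1, at log2 fold changes of rods of 1.44 ± 0.30 over M0 (adjusted p = 0.0345) and −1.85 ± 0.27 over M1. Its level was 626, 530 and 506 CPM with CaP and 273, 297 and 272 CPM with SiO2. The rod types did not overlap but were not called apart (adjusted p = 0.346). Over M0, *Ccl4* was called with CaP rods (1.85, adjusted p = 9.68e-04) and not with SiO2 rods (0.86, adjusted p = 0.168). *Ccl2*, which attracts monocytes, stood at 205 to 389.6 CPM with rods, at 184, 185 and 231 CPM in M0 and at 1695, 1487 and 1513 CPM in M1 (log2 fold change over M1 −2.42 ± 0.19, adjusted p = 3.16e-07). *Ccl3* and *Ccl7* had log2 fold changes over M1 of −1.86 and −4.07, and every rod library lay above every M0 library for both, without a call against M0 (adjusted p = 0.0863 and 0.154). *Ccl3* and *Ccl4* reads may be shared with near relatives. *Tnf* stood at 28.9 to 58.0 CPM with rods, at 19.3, 35.8 and 25.0 CPM in M0 and at 79.4, 123 and 137 CPM in M1 (−1.36 ± 0.25, adjusted p = 0.0016).

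*Hmox1*, heme oxygenase 1, was not called between rods and M1 (log2 fold change 0.34 ± 0.23, adjusted p = 0.33), with 140.3 to 206 CPM with rods and 96.2, 132 and 157 CPM in M1. *Arg1*, arginase 1, was lower with rods (−1.25 ± 0.34, adjusted p = 0.0203), a call lost without any given M1 library (highest adjusted p 0.0796). *Ccl24* missed the threshold over M1 (1.90 ± 0.66, adjusted p = 0.0582). *Clec10a*, a galactose-type lectin, stood at 18.1 to 19.7 CPM with rods, at 14.1, 16.7 and 16.1 CPM in M0 and at 11.5, 9.15 and 10.5 CPM in M1 (0.86 ± 0.12, adjusted p = 1.58e-04).

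Metabolic and stress lists held lower members and none higher by edgeR, as for cholesterol synthesis and uptake (15 of 23 lower), NRF2-responsive genes (9 of 19), the unfolded protein and integrated stress response (5 of 21) and immediate early genes (4 of 16), against 11.5% of all genes. For the TCA cycle and respiratory chain the share, 3 of 26, was that of all genes, and no member was lower without M1 replicate 2 or 3. At an unadjusted p below 0.05 these 5 lists held 0, 0, 2, 2 and 1 higher members, and with DESeq2 0, 0, 1, 1 and 0. Among 34 cell cycle, 20 ribosomal protein and 10 cholesterol efflux genes edgeR and DESeq2 called none in either direction, and at an unadjusted p below 0.05 none was higher and 3, 0 and 2 were lower.

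**Figure D5:**
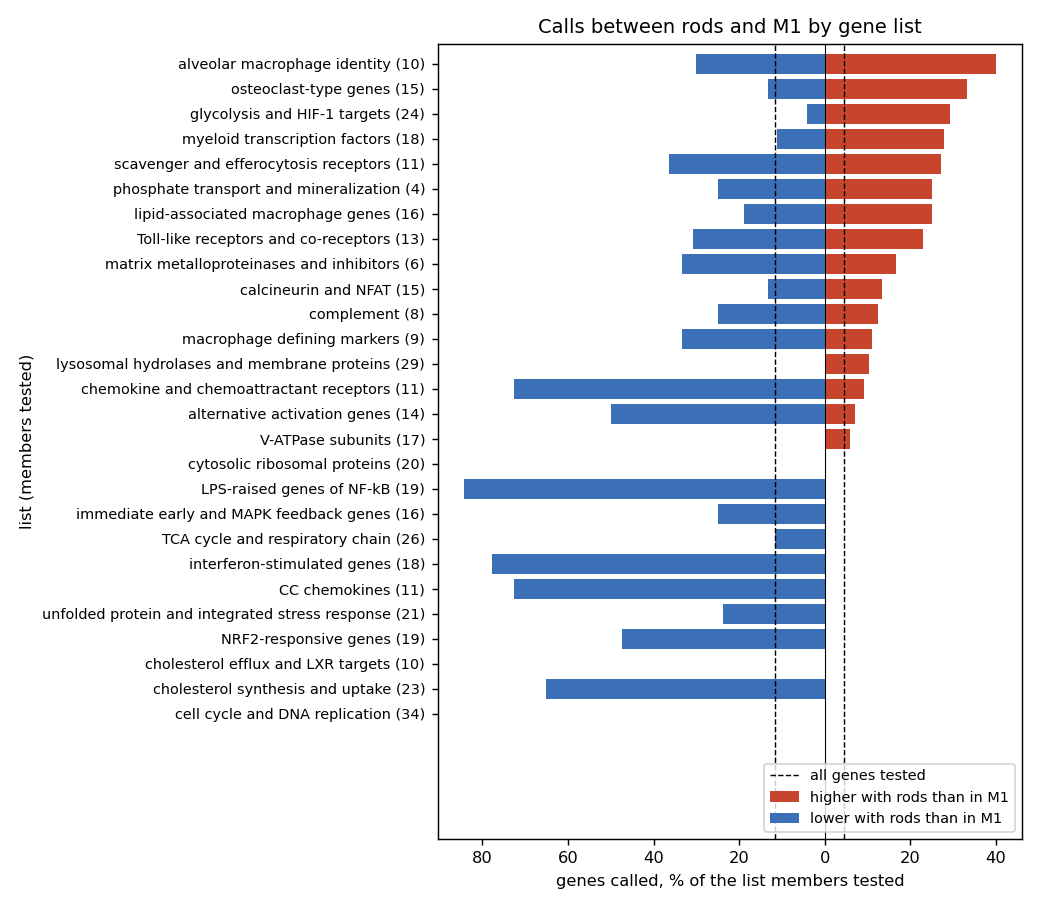
Share of the tested members of each list (y axis, number tested in parentheses) that were called higher with rods than in M1 (red, right) or lower (blue, left), in percent. Dashed lines mark the shares over all genes tested, 4.46% higher and 11.5% lower. Alveolar macrophage identity genes have the longest red bar (40% higher, 30% lower). Osteoclast-type genes (33.3% higher, 13.3% lower) and glycolysis and HIF-1 targets (29.2% higher, 4.17% lower) follow. Genes raised by LPS through NF-κB have the longest blue bar (84.2% lower).

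Of the 73 genes that rods raised over M0, 27 were also raised by M1, and none of these was higher with rods than in M1. Rods were lower than M1 for 13 of the 27 and not called against it for 14. The remaining 10 of the 73 were called neither for M1 over M0 nor for rods over M1. M1 exceeded M0 at 1736 genes (10.4%). *Gdf15*, a stress-induced cytokine, stood at 5.66 to 8.44 CPM with rods (median 6.32), at 1.74, 2.01 and 2.08 CPM in M0 and at 25.6, 26.3 and 24.5 CPM in M1. The 3 conditions did not overlap, and the log2 fold change over M0 was 1.84 ± 0.20 with rods (adjusted p = 5.22e-04) and 3.74 ± 0.22 in M1. *Il1rn*, the interleukin 1 receptor antagonist, stood at 38.7 to 84.3 CPM with rods, at 10.4, 13.0 and 14.9 CPM in M0 and at 155, 155 and 153 CPM in M1. *Ddit3*, a transcription factor of the integrated stress response, had log2 fold changes over M0 of 1.40 with rods and 2.45 in M1. Every CaP library lay above every SiO2 library for *Il1rn* and *Ddit3*, without a call between the rod types. *Acod1*, the enzyme that makes itaconate, stood at 5.46 to 8.61 CPM with rods and 2.31 to 4.16 CPM in M0, and at 129 to 179 CPM in M1.

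For the 14 genes with no call between rods and M1, the test did not separate rods from classical activation. *Ero1l*, an oxidase for protein folding in the endoplasmic reticulum, stood at 325 to 456 CPM with rods, at 166, 155 and 197 CPM in M0 and at 350.4, 314 and 342 CPM in M1. *Lims2*, a focal adhesion adaptor, stood at 25.6 to 34.3 CPM with rods, at 7.34, 7.47 and 5.32 CPM in M0 and at 15.5, 28.2 and 27.9 CPM in M1. *Hcar2*, the receptor for niacin and β-hydroxybutyrate, stood at 13.8 to 28.6 CPM with rods, at 3.55, 6.69 and 6.01 CPM in M0 and at 10.1, 14.6 and 14.2 CPM in M1. For these 3 the log2 fold change of rods over M1 was 0.18 ± 0.14, 0.31 ± 0.20 and 0.59 ± 0.26, none past the threshold. CaP rods alone were called above M1 for *Hcar2* (0.84, adjusted p = 0.0429). *Lilr4b*, an inhibitory receptor with close paralogues whose reads may be shared, had −0.08 ± 0.13. Without M0 replicate 1, 4 genes were called raised by both.

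Median transcript length was 2623 bases for the 742 genes and 2597 for all tested, and median GC content was 50.8% and 49.2%, with length known for 90.7% of the genes tested. For the 36 rod-raised genes the medians were 1968 bases and 51.0%. Protein-coding genes made up 601 of the 742, 81.0%, against 65.2% of all genes tested.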

How the data were processed

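RNA was sequenced from 15 cultures of MH-S cells, 3 in each of 5 groups. The authors prepared Smart-seq2 libraries, aligned reads to the mouse genome (GRCm39) with STAR and estimated gene abundance with Salmon in the nf-core/rnaseq workflow. The deposited values are raw counts per Ensembl gene, given as whole numbers, with no normalization. All 15 columns of the table were used and 0 were left out. The counting was not strand-specific as far as the sources state, so overlapping and antisense genes cannot be told apart.

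Gene names, lengths and GC content came from GENCODE vM21 (GRCm38), with RefSeq names where it gave none. In all, 51487 of 78317 identifiers had a name. Genes passing edgeR's filterByExpr (16654) were scaled by TMM and tested with the quasi-likelihood F-test (edgeR 4.0.16, R 4.3.3) in a model of M0, M1, M2 and all 6 rod libraries as 1 group. A second model kept CaP and SiO2 apart. The standard error was taken as the log2 fold change divided by the root of F. The study's thresholds for DEGs were kept (adjusted p 0.05, log2 fold change 0.5 in either direction). A group was at the floor when no library exceeded 3 counts. Total counts lay between 8459643 and 68750050, so low genes were measured least precisely in the shallowest libraries. The fit was tested on simulated data.

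Genes were named by rule. The rule took the 12 largest increases over M1 and the 4 largest decreases with means of at least 5 CPM and no overlap, the 15 rod-raised and 12 M1-lowered genes that ranked first, up to 4 higher members of each list, genes named in the study's RNA-seq text, and up to 12 genes raised by both treatments. The remaining rod-raised genes and the list members that were lower or not called were named after their values were seen. The gene classes, lists and compared groups were chosen with earlier results of these data known. Alternatives were DESeq2 1.42.0, other scalings, filters, models and thresholds, a replicate block, thinned counts and omission of each library. Some list members are not reported here.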

Additional observations from a re-analysis of the deposited data

Results flagged for a closer look

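Among the 85 named genes, the 6 rod libraries were checked with Dixon's criterion for a library far from the others, which chance meets in about 1 of 20 groups, and 8 genes met it. CaP replicate 1 was lowest for *Gpnmb* (173 CPM) and stood out for *C430002N11Rik* (3.54 CPM) and *ENSMUSG00000120319* (19.9 CPM). CaP replicate 3 was highest for *Lgals3* (2182 CPM), *Selenbp1* (13.6 CPM) and *Urah* (0.0498 CPM, close to no counts). SiO2 replicate 3 stood out for *Bhlhe41* (5.46 CPM) and SiO2 replicate 2 for *Il6* (0.453 CPM).

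*Rcan1* differed between the rod types themselves, with a log2 fold change of CaP over SiO2 of 2.87 (edgeR, adjusted p = 0.00147), and all 3 CaP libraries lay above all 3 SiO2 libraries.

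The IL-4 libraries were in no compared group, although they entered the estimate of the spread. In them, 7 of the 36 rod-raised genes were also higher than in M0, where 2.17% of all genes tested were. The log2 fold changes of M2 over M0 were 3.31 for *Cd200r4*, 3.19 for *Mmp12*, 1.62 for *Nodal*, 1.40 for *Oit3*, 0.85 for *Hilpda*, 0.85 for *Plekho1* and 0.83 for *Pgp*. The M0 libraries are shared with the comparison that chose the 36, so a low M0 value raises both.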

How the results depend on the processing

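Counts are given in the order rods above M1, rods below M1, rods above M0, M1 below M0, rod-raised, M1-lowered and raised by both, and those not named here stayed within 1.5 times. DESeq2 gave 239 rods above M0, 72 rod-raised and 113 raised by both. With no filter there were 1366 above M1, 290 above M0, 82 rod-raised and 116 raised by both. With at least 10 counts in every library 1234 were below M1. SiO2 rods alone gave 464 above and 1277 below M1, 37 above M0, 17 rod-raised and 16 raised by both. The 12 libraries without M2 gave 43 raised by both, and the 9 libraries compared gave 1340 above M1. Thinned counts gave 44 above M0 and 20 rod-raised. An absolute log2 fold change above 1 left 411 above M1, 425 lower in M1 than M0 and 215 M1-lowered. Leaving out single libraries gave 445 to 1215, 1437 to 2038, 8 to 142, 402 to 1419, 4 to 61, 239 to 657 and 4 to 59. The lowest values came without M1 replicate 2, M1 replicate 1 (for rods below M1) or M0 replicate 1 (for rods above M0, rod-raised and raised by both), and all but 1 of the highest without M2 replicate 2, the exception being 2038 without M2 replicate 3. Fewer libraries were tested in each, and beyond that the cause was not tested.

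The log2 fold change of *Lilr4b* over M1, which was not called, changed sign with CaP rods alone (0.068), in the 9 libraries compared (0.0014) and without M2 replicate 2 (0.0056), and ranged down to −0.12 without M1 replicate 2. Over the named genes and alternatives, 2387 values of rods over M1 kept their direction and side of the threshold, 123 lost a call and 6 gained one.

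Samples with the same replicate number deviated together in some pairs and apart in others, and nothing in the labels pairs them. With the replicate block the counts were 693, 1840, 52, 703, 24, 382 and 21.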

Other observations

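Rods lowered 77 genes relative to M0, 0.462% of those tested, of which 40 were also lower in M1, 3 were higher in M1 (*Tnnt2*, *Clec4a1* and *Ms4a6c*) and 34 were not called in M1. The genes named here were chosen after their values were seen. Of 9 macrophage defining markers tested 1 was lower with rods than in M0 (*Aif1*), with a median log2 fold change of −0.13, as was 1 of 11 chemoattractant receptors (*Ccr2*) and 1 of 11 scavenger and efferocytosis receptors. *Ccr2*, the receptor for the chemokine CCL2, was at a mean of 3.92 CPM with rods, a log2 fold change over M0 of −1.98 (edgeR, adjusted p = 8.87e-04). *Tgfbi*, a matrix protein, fell from 18.0 to 5.61 CPM, and *Aif1*, which encodes the actin-binding protein IBA1, from 24.5 to 7.10 CPM.

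All 3 genes of the complement component C1q were lower with rods than in M0. The log2 fold change was −2.23 for *C1qb* (adjusted p = 0.00152), −2.51 for *C1qa* (adjusted p = 0.0402) and −2.03 for *C1qc* (adjusted p = 0.0456). *Mrc1*, the mannose receptor, fell from 1.85 to 0.515 CPM and *C3*, the central complement component, from 10.5 to 4.98 CPM. Unlike *C1qb*, which also fell in M1 (−1.18), *C3* was not lower in M1 than in M0 (0.10). The number of genes lower than M0 was 5 without M0 replicate 1, 168 without M0 replicate 2 and 22 without M0 replicate 3. *C1qa* and *C1qc* lost their calls without any given M0 library (adjusted p 0.0832 to 0.179), and *C3* also without M0 replicate 2 (adjusted p = 0.0857). *Ccr2*, *Tgfbi*, *Aif1* and *C1qb* kept their calls without any given M0 library (highest adjusted p 0.016). Without M0 replicate 1, *Mrc1* and *C3* lost theirs (adjusted p 0.184 and 0.348), at log2 fold changes of −1.70 and −0.99.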
